A study of Homo sapiens with 24 samples.

Results

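The 44 genes described here build, regulate or mark the cornified envelope and squamous differentiation. They were chosen by name: a row of the gene count table was kept when its Ensembl identifier, without the version, mapped to a listed symbol. The list was made with earlier results of these data known. All 44 were found, of 60668 rows. They were followed in MCF-10A, an immortalised, non-tumorigenic human mammary epithelial line, grown as 3D cultures on growth factor-reduced Matrigel. The parental line was compared with MCF-10A MYC-ER, which carries MYC joined to a hormone-binding domain of the oestrogen receptor (ER), so that 4-hydroxytamoxifen (4-OHT) switches the fusion protein on. Each line received 1 µM 4-OHT for 8, 24 or 48 h or was left at 0 h, every culture was collected on day 5, and each of the 8 groups holds 3 libraries of poly(A) RNA. The parental cultures received the same 4-OHT times, so both lines share the drug and differ in the fusion gene. The promoter that drives MYC-ER, and whether the line is 1 clone, are not given in the sources used here.

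The cornified envelope is the protein shell that replaces the plasma membrane of a dying keratinocyte. Precursors such as involucrin and the small proline-rich proteins are cross-linked by transglutaminases, the cells are held together by modified desmosomes called corneodesmosomes, and kallikrein peptidases, checked by protease inhibitors, later cut those contacts. Many of the genes lie in the epidermal differentiation complex on chromosome 1. Mammary epithelium does not cornify in the normal gland, but cultured mammary cells of basal character are known to express several of these genes.

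The 24 libraries held 136860029 to 182438505 counts each, a 1.33-fold range. Levels are given in CPM, which are counts divided by the library total, the totals first scaled by edgeR's trimmed mean of M values, and expressed in parts per 1000000, and 3 counts in the smallest library are worth 0.0219 CPM. The MYC row, to which the endogenous gene and any transgene sequence it shares would both contribute, averaged 387, 795, 321 and 248 CPM at 0, 8, 24 and 48 h in MYC-ER cells and 463 to 532 CPM over the parental groups. It measures RNA and not the activity of the fusion protein. Basal markers were abundant, with 12 genes such as KRT5 summing to 15810.0 to 36482 CPM per library, against 392.3 to 929.8 CPM for 12 luminal markers, of which PGR and KIT were at 0 throughout. In bulk RNA, fewer cells of a type and less RNA per cell cannot be told apart. The labels say that wells were seeded in triplicate and nothing more about how the replicates were made, so p-values measure the spread between these samples, which may be technical.

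Of the 44 genes, 40 passed the filter on low counts, which was met by 22158 genes in all. TGM3, KLK6, HRNR and CRNN did not pass and held at most 22, 22, 10 and 5 counts in any library. The sum over the 44 genes was 311 to 404 CPM in the MYC-ER libraries and 995 to 2063 CPM in the parental libraries, with no overlap. S100A8, S100A9 and SLPI made up 53.5% to 71.2% of that sum in every library. Per kilobase of transcript, the 4 highest levels in parental cells at 0 h were those of S100A9 (927 CPM per kb), SLPI (659.9), S100A8 (507) and SPRR1B (298). In MYC-ER cells at 0 h SLPI stood highest on that scale (204), followed by S100A8 (117), S100A9 (88.9) and LYPD3 (26.8).

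**Figure D1:**
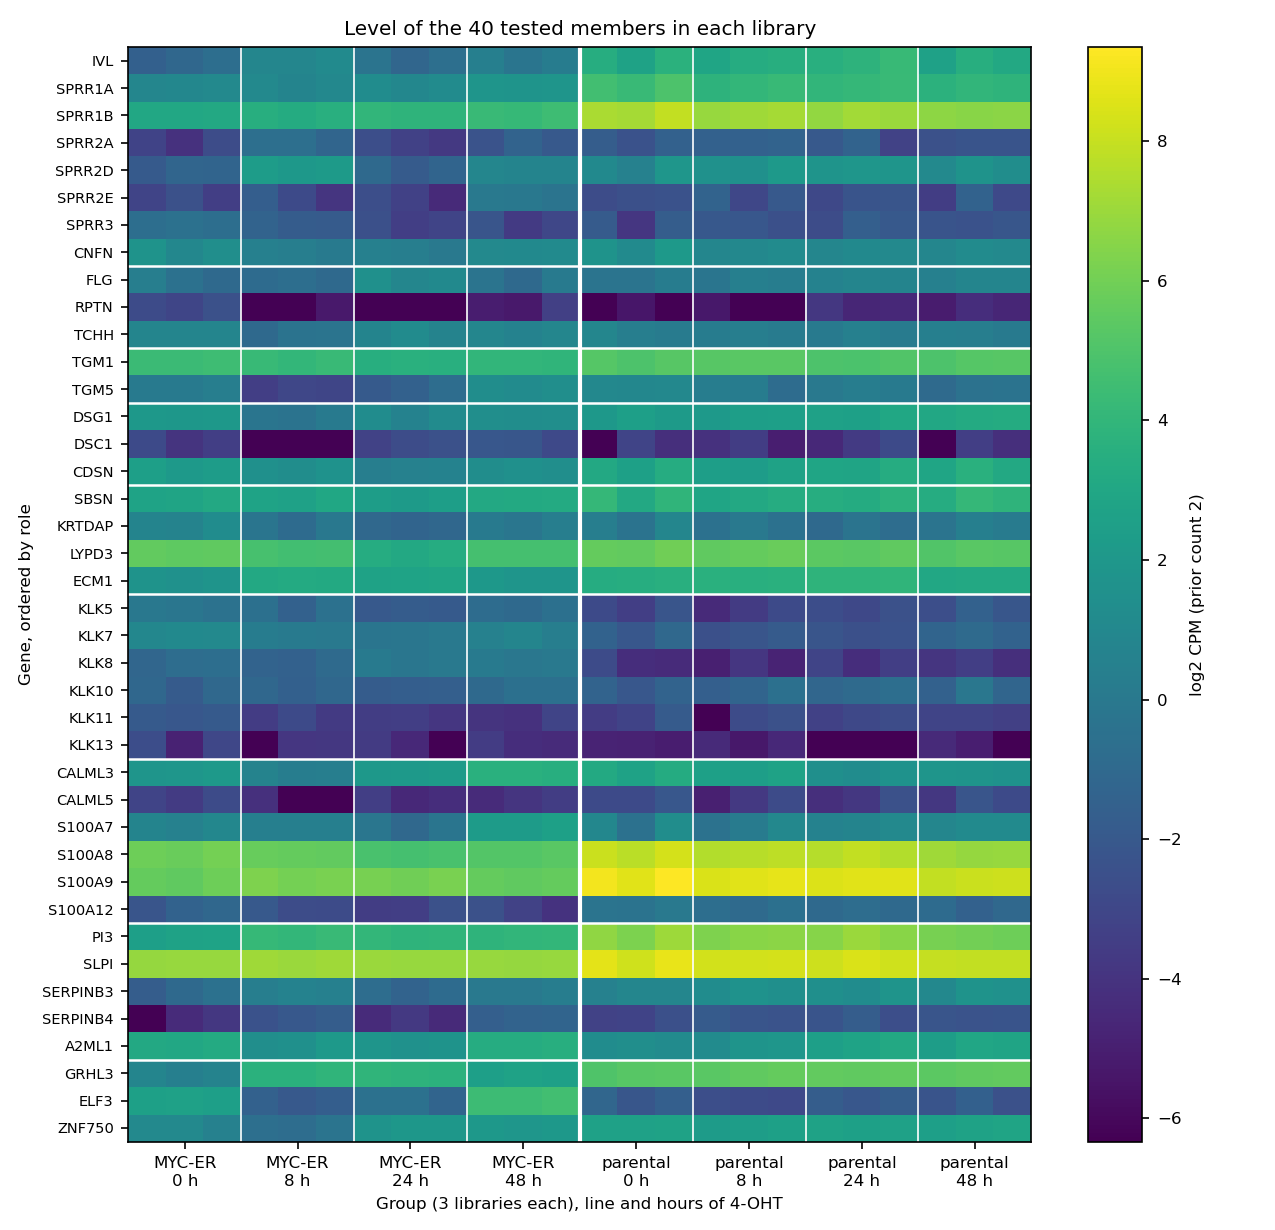
Heat map of log2 CPM (prior count 2) for the 40 genes that passed the filter, one row per gene in order of role and one column per library, 3 libraries for each line and time of 4-OHT. SPRR1B, S100A8, S100A9, PI3 and SLPI are brightest in the parental columns, whereas ELF3, KLK7 and KLK8 are brighter in the MYC-ER columns at 0 and 48 h.

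The first comparison asked how the genes moved after MYC-ER was switched on. Within 8 h several envelope precursors, the serpins SERPINB3 and SERPINB4, PI3 and GRHL3 rose, whereas the corneodesmosome genes, TGM5, ELF3 and ZNF750 fell. At 8 h against 0 h 10 of the 40 tested genes were higher and 19 lower in edgeR's quasi-likelihood test (Benjamini-Hochberg adjusted p under 0.05), 29 in all, where 67.6% of all genes tested were called, 32.2% higher and 35.4% lower. Their median log2 change was -0.60, against -0.10 over all genes tested. At 24 h 8 were higher and 18 lower, against a background of 61.6% called, 30.4% and 31.2% in each direction, with a median of -0.48 against -0.02. At 48 h the balance had turned: 17 were higher and 9 lower, against 44.1% called, 23.4% and 20.7% in each direction, with a median of 0.22 against 0.03. DSC1 at 8 h and RPTN at 24 h, whose groups were at 0 counts, lie below the median of that time also at the bound that the floor allows. The shares called lie near the background at 8 and 24 h, so the number of changed members is not itself a result. The 3 comparisons share the 0 h libraries.

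Step by step, 24 h against 8 h brought 10 members up and 14 down (background 55.5%, 28.4% and 27.1% in each direction). Between 24 and 48 h 24 rose and 4 fell, where 53.7% of all genes were called, 28.2% higher and 25.5% lower. The 4 that fell over that last step were FLG, ECM1, S100A9 and GRHL3. Values of the 3 libraries did not overlap between 8 and 0 h for 32 of the 40 members, against 73.5% of all genes tested. Over the 3 times 8 members were lower throughout (SPRR3, TGM1, DSG1, CDSN, KRTDAP, LYPD3, S100A8 and S100A12) and 4 higher throughout (SPRR1B, ECM1, PI3 and GRHL3). A further 5, IVL, SPRR2A, SPRR2D, SERPINB3 and SERPINB4, were higher at 8 and at 48 h but not called at 24 h, and all 5 fell between 8 and 24 h and rose again between 24 and 48 h. How many of all genes tested took these courses was not counted. The 8 h calls of SPRR3, TGM1, S100A8, S100A12 and SPRR1B were lost in some alternative fits. So were the 48 h calls of SPRR2A, KRTDAP and ECM1, and the rises of IVL, SPRR2A and SPRR1B from 24 to 48 h.

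**Figure D2:**
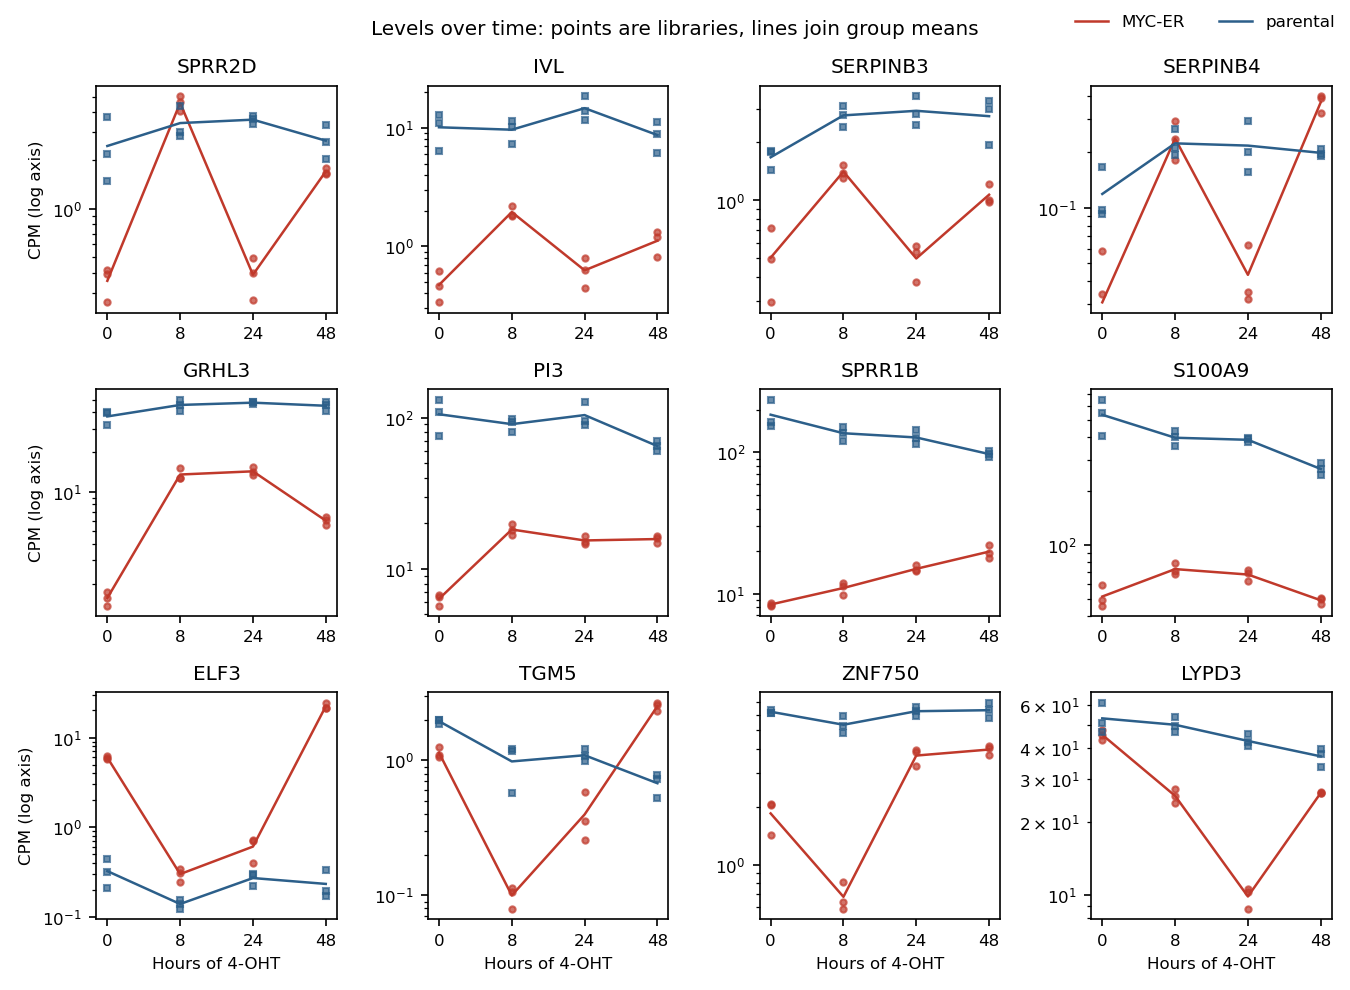
CPM (log axis) against hours of 4-OHT for 12 members, points for single libraries and lines through group means, MYC-ER in red and parental in blue. SPRR2D, IVL, SERPINB3 and SERPINB4 are higher at 8 h, lower again at 24 h and higher at 48 h in MYC-ER cells, with SERPINB4 highest at 48 h and the other 3 at 8 h, whereas ELF3, TGM5 and ZNF750 are lowest at 8 h.

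The envelope precursors, the proteins that are cross-linked into the shell, did not move as 1 group. Among the 8, 4 rose and 2 fell at 8 h, 1 rose and 2 fell at 24 h, and 6 rose and 1 fell at 48 h, where 67.6%, 61.6% and 44.1% of all genes tested were called. All of them but CNFN lie in the epidermal differentiation complex. SPRR2D (ENSG00000163216.7, GRCh38 chr1:153039732-153041120), a small proline-rich protein, was measured in MYC-ER cells at 0.261, 0.414 and 0.391 CPM at 0 h, 5.02, 4.06 and 4.61 at 8 h, 0.495, 0.271 and 0.397 at 24 h and 1.79, 1.68 and 1.65 at 48 h. Parental libraries held 2.18, 1.49 and 3.71 CPM at 0 h, 3.02, 2.86 and 4.38 at 8 h, 3.36, 3.796 and 3.61 at 24 h and 2.03, 3.34 and 2.59 at 48 h. The MYC-ER libraries at 8 h lay above those of every other MYC-ER time and the 0 and 24 h libraries overlapped. The change at 8 h was 3.68 (SE 0.30, adjusted p = 3.2e-10) on the log2 scale. By 24 h the level had fallen by 3.55 from 8 h and did not differ from 0 h beyond the spread (0.13), and at 48 h it was 2.26 (SE 0.29, adjusted p = 1.1e-06) against 0 h. The parental line gave no call at any time (log2 changes of 0.47, 0.55 and 0.11), and the change differed between the lines at 8 h by 3.20 (adjusted p = 3.2e-07).

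The near relatives SPRR2A and SPRR2E followed at levels below 1 CPM, so that their counts were few. SPRR2A averaged 0.0966, 0.5699, 0.103 and 0.275 CPM over the 4 times in MYC-ER cells, with changes of 2.55 (adjusted p = 4.2e-05) at 8 h and 1.498 (adjusted p = 0.0106) at 48 h. Its 48 h call was lost without MYC-ER 0 h replicate 2 and without MYC-ER 48 h replicate 2 (log2 changes of 1.16 to 1.18), and its rise from 24 to 48 h, 1.39, was lost without MYC-ER 24 h replicate 3 and without MYC-ER 48 h replicate 2 (log2 changes of 1.08 to 1.15). SPRR2E was at 0.119, 0.162 and 0.0925 CPM at the first 3 times and at 0.918 at 48 h, the only MYC-ER time at which it was called against 0 h (2.94 (adjusted p = 3.4e-04)). Reads of these close copies may have been shared out between them when the counts were made, so the level of each single SPRR2 gene is uncertain.

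Involucrin (IVL, ENSG00000163207.7, chr1:152908546-152911886), the early scaffold of the envelope, was at 0.336, 0.459 and 0.619 CPM at 0 h, 1.82, 1.82 and 2.201 at 8 h, 0.803, 0.442 and 0.635 at 24 h and 1.33, 0.819 and 1.198 at 48 h in MYC-ER cells. The parental line gave 11.03, 6.399 and 12.9 CPM at 0 h, 7.301, 10.2 and 11.4 at 8 h, 11.7, 13.9 and 18.5 at 24 h and 6.17, 11.1 and 8.82 at 48 h. Every parental library lay above every MYC-ER library, and within MYC-ER cells the 8 h libraries were highest. The gene rose by 2.04 (SE 0.31, adjusted p = 4.5e-06) at 8 h, was not called at 24 h (0.41) and rose by 1.24 (adjusted p = 0.00231) at 48 h. The step from 24 to 48 h alone (0.83) was lost without MYC-ER 24 h replicate 2 or 3 and without MYC-ER 48 h replicate 1 or 3 (log2 changes of 0.63 to 0.84). No parental time was called (-0.07, 0.54 and -0.22).

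SPRR1B (ENSG00000169469.9, chr1:153031203-153032900), a precursor of the same family and the most abundant of the group per kilobase, followed another course, rising in MYC-ER cells and, at 48 h, falling in parental cells. Its MYC-ER libraries held 8.22, 8.28 and 8.59 CPM at 0 h, 11.2, 9.76 and 11.9 at 8 h, 15.8, 14.4 and 14.7 at 24 h and 19.4, 17.8 and 22.3 at 48 h. Parental levels were 164, 153 and 237 CPM at 0 h, 121, 138 and 150.4 at 8 h, 114, 143 and 126 at 24 h and 102, 92.4 and 97 at 48 h. No MYC-ER library reached the lowest parental library at any time, while the 2 lines drew closer as time went on. In MYC-ER cells the changes were 0.39 (adjusted p = 0.0126), 0.84 (adjusted p = 8.2e-06) and 1.24 (adjusted p = 7.3e-08) at 8, 24 and 48 h. The 8 h call was lost without MYC-ER 8 h replicate 3 (a log2 change of 0.33) and the step from 24 to 48 h was lost without MYC-ER 48 h replicate 3 (a log2 change of 0.31). In parental cells SPRR1B fell at 48 h by 0.93 (adjusted p = 1.5e-05). Its parental calls at 8 and 24 h (-0.44 and -0.54) were lost with trends in GC content and length removed (-0.22 and -0.17).

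SPRR1A, its neighbour in sequence and position, was at 1.79, 1.91 and 2.06 CPM at 0 h, 2.05, 1.63 and 1.99 at 8 h, 2.404, 1.87 and 2.301 at 24 h and 3.58, 3.46 and 3.52 at 48 h in MYC-ER cells. Across the parental times it stood at 23.9, 19.2 and 30.98 CPM at 0 h, 13.7, 16.3 and 18.9 at 8 h, 15.9, 17.6 and 19.4 at 24 h and 13.1, 15.6 and 14.8 at 48 h. The MYC-ER level stayed in 1 range up to 24 h and the 3 libraries at 48 h stood above all others of that line. It was called only at 48 h among the MYC-ER times (0.87 (adjusted p = 5.9e-05)), and in parental cells it was lower at 48 h (-0.77), a call lost with trends in GC content and length removed (a log2 change of -0.37). SPRR3, by contrast, fell at each time in MYC-ER cells, from a mean of 0.648 CPM to 0.309, 0.116 and 0.127 (-1.07, -2.47 and -2.33). Its 8 h call was lost with no filter on low counts, without MYC-ER 0 h replicate 1, 2 or 3 and without MYC-ER 8 h replicate 2 or 3 (log2 changes of -1.10 to -0.99).

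Cornifelin (CNFN), an envelope component encoded on chromosome 19, was at 3.22, 1.92 and 2.62 CPM at 0 h, 1.37, 1.27 and 1.05 at 8 h, 1.38, 1.31 and 1.01 at 24 h and 2.06, 2.15 and 2.23 at 48 h in MYC-ER cells. In parental cells it was at 3.28, 2.29 and 4.38 CPM at 0 h, 1.78, 1.96 and 2.36 at 8 h, 1.83, 2.14 and 2.09 at 24 h and 1.78, 2.32 and 2.03 at 48 h. MYC-ER libraries at 8 and 24 h lay below those at 0 h, and those at 48 h overlapped the 0 h range. The changes were -1.07 (adjusted p = 1.0e-04) at 8 h and -1.07 (adjusted p = 1.2e-04) at 24 h, and -0.27, not called, at 48 h. Parental cells also gave lower calls at all 3 times (-0.70, -0.72 and -0.70), each lost with trends in GC content and length removed and without parental 0 h replicate 3, and the difference between the lines was not called at any time (-0.37, -0.35 and 0.43).

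The start regions of 4 precursors are shown because these genes lie in the same complex but did not all follow the same course. Of the 44 genes 37 had a promoter entry in RefSeq (GRCh38.p14), covering 250 bases before to 50 after the start, and SPRR2D, SPRR2E, TGM1, KLK8, PI3, SLPI and ZNF750 had none. Capitals mark the letters TGANTCA, the core of AP-1 sites, and TATAAA, both searched on both strands, in the promoters of IVL (chr1:152908296-152908595, plus strand), SPRR1A (chr1:152983831-152984130, plus strand), SPRR1B (chr1:153030953-153031252, plus strand) and SPRR2A (chr1:153057463-153057762, minus strand), printed 5′ to 3′ along the gene.
IVL: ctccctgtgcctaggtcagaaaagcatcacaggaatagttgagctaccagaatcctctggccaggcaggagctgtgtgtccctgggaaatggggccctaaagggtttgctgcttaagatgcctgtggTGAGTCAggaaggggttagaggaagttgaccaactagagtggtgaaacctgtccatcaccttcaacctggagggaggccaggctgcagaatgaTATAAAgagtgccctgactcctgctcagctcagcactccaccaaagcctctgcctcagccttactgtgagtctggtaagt
SPRR1A: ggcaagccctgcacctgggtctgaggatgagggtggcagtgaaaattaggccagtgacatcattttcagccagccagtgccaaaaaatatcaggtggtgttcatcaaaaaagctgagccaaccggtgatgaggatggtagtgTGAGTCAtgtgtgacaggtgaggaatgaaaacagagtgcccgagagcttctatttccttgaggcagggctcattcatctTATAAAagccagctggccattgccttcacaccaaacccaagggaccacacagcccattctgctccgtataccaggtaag
SPRR1B: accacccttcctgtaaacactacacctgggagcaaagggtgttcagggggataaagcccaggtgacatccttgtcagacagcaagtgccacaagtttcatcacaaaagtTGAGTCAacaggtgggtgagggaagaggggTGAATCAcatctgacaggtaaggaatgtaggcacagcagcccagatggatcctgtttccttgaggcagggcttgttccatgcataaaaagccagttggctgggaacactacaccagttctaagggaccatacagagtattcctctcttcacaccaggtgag
SPRR2A: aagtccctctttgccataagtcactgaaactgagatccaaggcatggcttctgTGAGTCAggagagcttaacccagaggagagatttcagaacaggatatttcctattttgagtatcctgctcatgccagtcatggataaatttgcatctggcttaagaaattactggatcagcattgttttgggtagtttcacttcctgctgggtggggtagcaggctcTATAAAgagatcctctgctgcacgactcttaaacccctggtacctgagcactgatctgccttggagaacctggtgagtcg
All 4 held at least 1 AP-1 core, with its first base at position -123 in IVL, -108 in SPRR1A, -197 in SPRR2A, and -141 and -111 in SPRR1B, counted from the start site. TATAAA began at -30 in IVL and SPRR2A and at -29 in SPRR1A, and the letters were not in the SPRR1B window.

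Over the whole set, 13 of 37 member promoters (35.1%) held TGANTCA against 7.71% of 35116 promoters of the same length, and 17 (45.9%) held TATAAA against 11.5%. The ETS core AGGAAG was in 25 (67.6%) against 33.6%. CACGTG, the E-box bound by MYC and its partner MAX, was in 1 (2.7%, KRTDAP) against 7.26%, and the grainyhead motif AACCGGTT in 0 against 0.134%. AP-1 cores were in promoters of genes that rose at 8 h (IVL, SPRR2A, ECM1) and of genes that fell (SPRR3, KRTDAP, TCHH). These matches describe letters in a window and carry no measurement of binding.

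Among the S100-fused proteins, which bind keratin filaments or form part of the matrix of cornified cells, FLG and TCHH were measurable. Of the 3 that passed the filter, 2 fell at 8 h, 1 rose and 1 fell at 24 h, and none of the 3 was called at 48 h in edgeR's test, where 0 had an adjusted p under 0.05. Of all genes tested, 67.6%, 61.6% and 44.1% were called at these times, so counts among 3 genes are not themselves a result. Filaggrin (FLG, ENSG00000143631.10, chr1:152302165-152325239) was at 1.31, 0.709 and 0.502 CPM at 0 h, 0.535, 0.6101 and 0.487 at 8 h, 2.89, 1.79 and 2.18 at 24 h and 0.784, 0.502 and 1.05 at 48 h in MYC-ER cells. Parental libraries held 0.798, 0.794 and 1.195 CPM at 0 h, 0.852, 1.35 and 1.22 at 8 h, 1.54, 1.73 and 1.69 at 24 h and 1.41, 1.71 and 1.702 at 48 h. All 3 MYC-ER libraries at 24 h stood above every other library of that line, and no other time separated from 0 h. FLG rose by 1.44 (SE 0.29, adjusted p = 2.1e-04) at 24 h and fell by 1.55 from 24 to 48 h, the reverse of most members. In parental cells it was higher at 24 and 48 h (0.83 and 0.79), calls lost with trends in GC content and length removed and on leaving out single parental libraries.

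Trichohyalin (TCHH), best known from the hair follicle, was at 1.74, 1.77 and 1.75 CPM at 0 h, 0.506, 0.7804 and 0.794 at 8 h, 1.66, 2.38 and 1.61 at 24 h and 1.79, 1.5 and 1.79 at 48 h in MYC-ER cells. Parental readings were 1.804, 1.29 and 1.15 CPM at 0 h, 1.18, 1.28 and 1.14 at 8 h, 1.02, 1.403 and 1.13 at 24 h and 1.32, 1.29 and 1.07 at 48 h. The 8 h MYC-ER libraries lay below all others in both lines, and the remaining MYC-ER times overlapped. The fall at 8 h was -1.33 (SE 0.20, adjusted p = 3.8e-06), with no call at 24 or 48 h (0.11 and -0.05). Repetin (RPTN) was at 0.139, 0.108 and 0.169 CPM at 0 h, at 0, 0 and 0.0133 at 8 h and at 0 in all 3 libraries at 24 h in MYC-ER cells. The mean of RPTN at 0 h was 7.22-fold the level that 3 counts would give in the smallest MYC-ER library at 24 h. The fitted change has no meaning as a size.

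Transglutaminases make the cross-links of the envelope. TGM1 (ENSG00000092295.12, chr14:24249114-24263177), the membrane-bound enzyme, was at 20.5, 20.5 and 22.5 CPM at 0 h, 18.5, 16.8 and 19.4 at 8 h, 11.4, 12.1 and 11.6 at 24 h and 15.9, 16.1 and 15.2 at 48 h in MYC-ER cells. Parental levels were 36.5, 31.7 and 38.6 CPM at 0 h, 38.02, 40.3 and 39.96 at 8 h, 31.5, 29.9 and 34.7 at 24 h and 31.9, 36.7 and 39.4 at 48 h. The parental libraries were all higher than the MYC-ER libraries, and the lowest MYC-ER values were those at 24 h. TGM1 fell by 0.85 at 24 h (SE 0.08, adjusted p = 5.6e-09) and by 0.43 at 48 h. The small change at 8 h (-0.22) was lost with DESeq2's size factors, with no filter on low counts, in DESeq2's Wald test, without MYC-ER 0 h replicate 3 and without MYC-ER 8 h replicate 2 (log2 changes of -0.21 to -0.16). No parental time was called.

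TGM5 (ENSG00000104055.16, chr15:43232590-43266928) swung much further. It was at 1.096, 1.07 and 1.26 CPM at 0 h, 0.0795, 0.114 and 0.107 at 8 h, 0.256, 0.354 and 0.583 at 24 h and 2.55, 2.34 and 2.68 at 48 h in MYC-ER cells. Across the parental times it stood at 2.01, 1.86 and 1.998 CPM at 0 h, 1.21, 1.17 and 0.574 at 8 h, 0.983, 1.22 and 1.07 at 24 h and 0.526, 0.732 and 0.775 at 48 h. The MYC-ER values at 8 h were the lowest of the 24 and those at 48 h the highest. The change was -3.50 (SE 0.30, adjusted p = 9.0e-10) at 8 h, -1.52 at 24 h, then 1.14 (SE 0.25, adjusted p = 7.1e-04) at 48 h. In parental cells TGM5 fell at each time (-0.99, -0.84 and -1.53), so at 48 h the lines moved in opposite directions, with a difference of 2.67 (adjusted p = 3.3e-06). The parental 8 h call was lost with only the compared groups fitted (a log2 change of -0.99).

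The corneodesmosome genes were lower at 8 h of 4-OHT in MYC-ER cells, and 1 of them, DSC1, was not called later. All 3 fell at 8 h, and DSG1 and CDSN stayed lower at 24 and 48 h. Of all genes tested, 35.4%, 31.2% and 20.7% were called lower at the 3 times. Desmoglein 1 (DSG1, ENSG00000134760.6, chr18:31318160-31359246), the adhesive cadherin of upper epidermal layers, was at 3.996, 3.895 and 3.98 CPM at 0 h, 0.846, 0.759 and 1.07 at 8 h, 2.44, 1.52 and 2.33 at 24 h and 2.64, 2.57 and 2.63 at 48 h in MYC-ER cells. In parental cells it was at 4.14, 5.68 and 4.603 CPM at 0 h, 4.35, 5.41 and 5.84 at 8 h, 6.32, 5.91 and 7.94 at 24 h and 8.27, 9.47 and 9.83 at 48 h. MYC-ER libraries at 8 h were lowest and did not overlap any other group, and the parental libraries at 48 h were highest. DSG1 fell by 2.15 at 8 h (SE 0.18, adjusted p = 4.3e-10), by 0.92 at 24 h and by 0.60 at 48 h, while in parental cells it rose by 0.93 (adjusted p = 1.3e-04) at 48 h.

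Corneodesmosin (CDSN), the glycoprotein that coats these contacts, was at 5.75, 4.33 and 4.97 CPM at 0 h, 2.83, 2.597 and 3.195 at 8 h, 1.27, 1.46 and 1.51 at 24 h and 2.51, 2.92 and 2.62 at 48 h in MYC-ER cells. Parental libraries held 8.74, 5.91 and 10.4 CPM at 0 h, 5.58, 5.07 and 6.55 at 8 h, 7.35, 6.98 and 10.3 at 24 h and 7.25, 12.2 and 8.898 at 48 h. The 3 MYC-ER libraries at 24 h were the lowest of all 24. CDSN changed by -0.80, -1.83 (SE 0.21, adjusted p = 8.3e-08) and -0.90 at 8, 24 and 48 h. In parental cells only 8 h was called, also lower, a call lost with trends in GC content and length removed and on leaving out single libraries. For CDSN the difference between the lines was called at 24 and 48 h but not at 8 h. DSC1, the partner cadherin, was at 0.128, 0.05103 and 0.0817 CPM at 0 h and at 0 in all 3 MYC-ER libraries at 8 h. Its mean at 0 h was 4.001-fold the level that 3 counts would give in the smallest MYC-ER library at 8 h. At 24 and 48 h DSC1 averaged 0.137 and 0.187 CPM in MYC-ER cells.

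Of the 4 secreted or surface proteins of suprabasal cells, ECM1 moved against the rest. LYPD3 (ENSG00000124466.9, chr19:43460787-43465608), a surface protein anchored by a lipid tail and made in upper epidermal layers, was at 47.4, 43.3 and 45.5 CPM at 0 h, 27.1, 23.9 and 25.5 at 8 h, 10.5, 8.76 and 10.2 at 24 h and 26.2, 26.3 and 26.1 at 48 h in MYC-ER cells. The parental line gave 50.9, 46.8 and 61.5 CPM at 0 h, 46.5, 49.6 and 53.8 at 8 h, 42.3, 40.7 and 45.6 at 24 h and 33.5, 39.7 and 37.9 at 48 h. At 0 h the 2 lines were close, and the MYC-ER libraries then fell to their lowest at 24 h with no overlap between 24 h and any other time. LYPD3 changed by -0.83, -2.21 (SE 0.09, adjusted p = 7.2e-15) and -0.79 at 8, 24 and 48 h, and the 24 h change differed from the parental one by -1.90 (adjusted p = 3.9e-11). Parental LYPD3 was also called lower at 24 and 48 h, both calls lost with trends in GC content and length removed. At 48 h the difference between the lines was not called for LYPD3.

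KRTDAP, a secreted peptide of differentiating keratinocytes, was at 1.65, 1.57 and 2.43 CPM at 0 h, 0.824, 0.553 and 0.941 at 8 h, 0.477, 0.391 and 0.455 at 24 h and 1.05, 0.865 and 1.29 at 48 h in MYC-ER cells. Parental levels were 1.27, 0.766 and 1.79 CPM at 0 h, 0.696, 1.001 and 0.698 at 8 h, 0.5003, 0.795 and 0.586 at 24 h and 0.795, 1.37 and 1.11 at 48 h. MYC-ER libraries after 4-OHT lay below the 0 h range at all 3 times, lowest at 24 h. The changes were -1.28, -2.09 (adjusted p = 2.5e-06) and -0.82, and the last was lost with scaling by library size alone, without MYC-ER 0 h replicate 3 and without MYC-ER 48 h replicate 1 or 2 (log2 changes of -0.80 to -0.59). Parental KRTDAP was also called lower at 24 h, lost with trends in GC content and length removed and without parental 0 h replicate 3. For KRTDAP the difference between the lines was called only at 24 h, a call lost on leaving out some single libraries. Suprabasin (SBSN), another secreted suprabasal protein, was at 6.79, 7.105 and 8.61 CPM at 0 h, 6.79, 6.26 and 7.904 at 8 h, 5.29, 4.53 and 5.51 at 24 h and 8.67, 9.11 and 9.72 at 48 h in MYC-ER cells. Across the parental times it stood at 16.9, 8.804 and 15.5 CPM at 0 h, 7.25, 8.75 and 10.2 at 8 h, 11.04, 9.904 and 13.3 at 24 h and 10.2, 16.9 and 14.6 at 48 h. The MYC-ER libraries at 24 h were lowest and those at 48 h highest, but only 24 h was called against 0 h (-0.55), a call lost with scaling by library size alone, without MYC-ER 0 h replicate 3 and without MYC-ER 24 h replicate 2 (log2 changes of -0.47 to -0.44). The rise from 24 to 48 h was 0.84 (adjusted p = 0.00127).

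ECM1, a secreted glycoprotein of the extracellular matrix, was at 3.33, 2.98 and 3.47 CPM at 0 h, 8.63, 9.34 and 9.21 at 8 h, 6.57, 6.73 and 7.01 at 24 h and 4.08, 3.51 and 3.59 at 48 h in MYC-ER cells. In parental cells it was at 10.5, 10.6 and 11.97 CPM at 0 h, 12.5, 11.7 and 12.5 at 8 h, 14.8, 14.6 and 15.3 at 24 h and 8.47, 8.84 and 8.62 at 48 h. MYC-ER libraries at 8 h were highest, those at 24 h next and those at 48 h close to 0 h, with parental libraries at 0, 8 and 24 h above them all. The rise was 1.47 (SE 0.08, adjusted p = 1.3e-13) at 8 h and 1.05 (adjusted p = 4.7e-11) at 24 h. At 48 h the difference of 0.19 was lost with no filter on low counts, with only the compared groups fitted, with trends in GC content and length removed, without MYC-ER 0 h replicate 1 or 2 and without MYC-ER 48 h replicate 1 (log2 changes of 0.11 to 0.21).

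The kallikreins, serine peptidases that cut corneodesmosomes, lie in a row on chromosome 19 (7 members between 50943303 and 51065679) and were all low. KLK7 (ENSG00000169035.12, chr19:50976468-50984064), with KLK5 the main desquamation enzyme of skin, was at 1.91, 2.14 and 2.09 CPM at 0 h, 1.17, 1.07 and 1.01 at 8 h, 0.8498, 0.865 and 0.974 at 24 h and 1.48, 1.704 and 1.27 at 48 h in MYC-ER cells. Parental libraries held 0.362, 0.223 and 0.4699 CPM at 0 h, 0.163, 0.209 and 0.266 at 8 h, 0.205, 0.167 and 0.181 at 24 h and 0.406, 0.522 and 0.367 at 48 h. Every MYC-ER library lay above every parental library, and within MYC-ER cells the 0 h values were highest. KLK7 fell by 0.92 at 8 h and by 1.19 at 24 h (adjusted p = 3.6e-05) and was not called at 48 h (-0.46). Parental KLK7 was also called lower at 8 and 24 h, calls lost with only the compared groups fitted (and, at 8 h, on leaving out single libraries). The difference between the lines was not called for KLK7 at 8 or 24 h. KLK5 averaged 0.8495 CPM at 0 h and fell at 24 h (-1.70 (adjusted p = 3.6e-04)). KLK8 went the other way, from 0.548 CPM at 0 h to 0.983 and 0.999 at 24 and 48 h (0.84 (adjusted p = 0.0416) and 0.87 (adjusted p = 0.0494)). These KLK8 calls were lost with no filter on low counts, without MYC-ER 0 h replicate 1, 2 or 3 and without MYC-ER 24 h replicate 1, 2 or 3 (log2 changes of 0.69 to 0.95) for 24 h and with no filter on low counts, with trends in GC content and length removed, without MYC-ER 0 h replicate 1, 2 or 3 and without MYC-ER 48 h replicate 1, 2 or 3 (log2 changes of 0.72 to 0.98) for 48 h. KLK11 was lower at 24 and 48 h (-1.77 and -1.87), from 0.246 CPM, calls that were lost on leaving out most single libraries of the groups compared (-1.87 to -1.63 at 24 h and -1.95 to -1.68 at 48 h). KLK10 and KLK13 were not called at any MYC-ER time against 0 h.

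The calcium-binding members include the most abundant gene of the set. S100A9, which pairs with S100A8 to form calprotectin, was at 48.9, 45.7 and 59.4 CPM at 0 h, 79.1, 68.4 and 71.8 at 8 h, 69.3, 62.6 and 72.4 at 24 h and 49.7, 46.4 and 50.5 at 48 h in MYC-ER cells. Parental readings were 547, 406 and 651 CPM at 0 h, 358, 404 and 432 at 8 h, 375, 393 and 394 at 24 h and 245, 267 and 285 at 48 h. All parental libraries lay far above all MYC-ER libraries. The MYC-ER change was 0.51 (SE 0.12, adjusted p = 9.6e-04) at 8 h, 0.41 (adjusted p = 0.00641) at 24 h and -0.07, not called, at 48 h. In parental cells S100A9 fell at 48 h by 1.01 (adjusted p = 6.8e-06). The parental calls at 8 and 24 h (-0.43 and -0.47) were lost with trends in GC content and length removed (-0.15 and -0.03), with only the compared groups fitted and without parental 0 h replicate 3.

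S100A8, its partner, did not keep step. It was at 60.3, 55.05 and 68.3 CPM at 0 h, 52.8, 48.99 and 47.3 at 8 h, 28.2, 26.03 and 28.8 at 24 h and 35.5, 36.3 and 39.8 at 48 h in MYC-ER cells. Parental levels were 269, 208 and 318 CPM at 0 h, 186, 203 and 219 at 8 h, 190.4, 239.7 and 189.6 at 24 h and 138, 119 and 124 at 48 h. The MYC-ER libraries at 24 h were the lowest, while S100A9 at that time lay above its 0 h range. S100A8 fell by 1.15 at 24 h (SE 0.12, adjusted p = 3.4e-08) and by 0.72 at 48 h. Its small 8 h change (-0.30) was lost with DESeq2's size factors, with no filter on low counts, with trends in GC content and length removed, without MYC-ER 0 h replicate 1 or 3 and without MYC-ER 8 h replicate 2 or 3 (log2 changes of -0.31 to 0.01). In parental cells S100A8 was also called lower at all 3 times. The parental 48 h call was made in every alternative. Those at 8 and 24 h were lost with trends in GC content and length removed. For S100A8 the difference between the lines was called at 24 h but not at 8 or 48 h. S100A8 and S100A9 are also abundant in neutrophils and monocytes. The 12 leukocyte markers summed to 18.7 to 48.4 CPM over the libraries, most of it CSF1R. FCGR3A, CD3D, CD3E and MS4A1 were at 0 in all 24 libraries. PTPRC, the pan-leukocyte marker, was at 0 in every group except parental cells at 8 h, which held counts. CSF3R, LYZ and LST1 held counts in some groups of both lines, and CD14, ITGAM and CD79A in every group. Whether leukocytes contributed to S100A8 and S100A9 was not tested.

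S100A7, or psoriasin, an antimicrobial protein, was at 1.66, 1.49 and 1.89 CPM at 0 h, 1.35, 1.33 and 1.31 at 8 h, 0.891, 0.474 and 0.833 at 24 h and 4.86, 4.78 and 6.07 at 48 h in MYC-ER cells. Across the parental times it stood at 1.87, 0.708 and 2.58 CPM at 0 h, 0.742, 1.11 and 2.01 at 8 h, 1.49, 1.67 and 2.03 at 24 h and 1.79, 2.22 and 2.21 at 48 h. The MYC-ER libraries at 24 h were lowest of that line and those at 48 h the highest of all 24. S100A7 changed by -1.20 (adjusted p = 0.00534) at 24 h, then 1.64 (SE 0.34, adjusted p = 4.9e-04) at 48 h, with -0.34, not called, at 8 h. S100A12 fell at all 3 times in MYC-ER cells from a mean of 0.3404 CPM (-0.97, -1.63 and -1.69), and its 8 h call was lost with only the compared groups fitted, with trends in GC content and length removed, without MYC-ER 0 h replicate 2 or 3 and without MYC-ER 8 h replicate 2 or 3 (log2 changes of -0.94 to -0.69). CALML5 was called only at 8 h (-2.79), from 0.102 CPM, and that call was lost without MYC-ER 8 h replicate 2 or 3 (log2 changes of -2.23 to -2.20).

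CALML3, a calmodulin-like protein of epithelial cells, was at 3.62, 3.72 and 4.22 CPM at 0 h, 1.58, 1.21 and 1.29 at 8 h, 4.14, 4.27 and 4.83 at 24 h and 12.2, 12.3 and 11.2 at 48 h in MYC-ER cells. In parental cells it was at 9.23, 6.42 and 9.97 CPM at 0 h, 6.05, 5.47 and 6.404 at 8 h, 2.77, 2.399 and 3.199 at 24 h and 3.53, 3.49 and 3.203 at 48 h. In MYC-ER cells the 8 h libraries were lowest and the 48 h libraries highest, whereas in parental cells the 0 h libraries were highest. The MYC-ER changes were -1.503 (SE 0.15, adjusted p = 6.3e-09) at 8 h, 0.20, not called, at 24 h, then 1.63 (SE 0.14, adjusted p = 3.8e-09) at 48 h. Parental CALML3 fell by 1.61 at 24 h and 1.32 at 48 h, and the 2 changes at 48 h differed by 2.95 (adjusted p = 1.2e-10).

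Among the protease inhibitors, PI3 and the paired serpins rose, A2ML1 fell and recovered, and SLPI gave no MYC-ER call. PI3 (ENSG00000124102.5, chr20:45174902-45176544), or elafin, an elastase inhibitor that is itself cross-linked into the envelope, was at 5.72, 6.56 and 6.71 CPM at 0 h, 18.04, 16.7 and 19.9 at 8 h, 16.6, 14.7 and 14.9 at 24 h and 14.9, 15.97 and 16.4 at 48 h in MYC-ER cells. Parental libraries held 109, 75.4 and 132 CPM at 0 h, 80.8, 92.8 and 97.7 at 8 h, 89.9, 127 and 94.4 at 24 h and 69.7, 64.5 and 60.1 at 48 h. MYC-ER libraries after 4-OHT all lay above the 0 h libraries and all below the parental ones. PI3 rose by 1.52 (SE 0.15, adjusted p = 1.3e-08) at 8 h and was still higher at 24 and 48 h (1.28 and 1.31).

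SLPI, the related secretory leukocyte peptidase inhibitor, was at 118, 122 and 124 CPM at 0 h, 140.2, 129.6 and 139 at 8 h, 125, 119.6 and 123 at 24 h and 124, 117 and 122 at 48 h in MYC-ER cells. The parental line gave 426, 297 and 457 CPM at 0 h, 312, 305 and 322 at 8 h, 282, 346 and 294 at 24 h and 250.9, 239 and 241 at 48 h. The MYC-ER values stayed in a narrow band while parental libraries were higher and lowest at 48 h. No MYC-ER time was called (0.17, 0.01 and -0.01), and in parental cells SLPI fell at 48 h by 0.69 (adjusted p = 3.0e-05).

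SERPINB3, known as squamous cell carcinoma antigen, was at 0.296, 0.499 and 0.718 CPM at 0 h, 1.31, 1.53 and 1.39 at 8 h, 0.582, 0.379 and 0.538 at 24 h and 0.986, 1.004 and 1.22 at 48 h in MYC-ER cells. Parental levels were 1.44, 1.79 and 1.802 CPM at 0 h, 2.42, 3.097 and 2.78 at 8 h, 2.82, 2.47 and 3.47 at 24 h and 1.95, 3.297 and 2.97 at 48 h. MYC-ER libraries at 8 and 48 h lay above those at 0 and 24 h. SERPINB3 rose by 1.48 (adjusted p = 2.0e-05) at 8 h and 1.09 (adjusted p = 0.00115) at 48 h. It was also called higher in parental cells at the 3 times (0.72, 0.80 and 0.71), calls lost on leaving out single parental libraries, and the difference between the lines was not called at any time (0.76, -0.81 and 0.38). SERPINB4 showed the same pair of calls, 2.91 (adjusted p = 6.3e-05) and 3.56 (adjusted p = 1.2e-05), at means of 0.0308, 0.236, 0.0434 and 0.371 CPM over the 4 times, and its 0 h level rests on few counts, with 1 library at 0.

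The 2 serpin genes are close copies, and their RefSeq promoters are printed because they show how close: 296 of 300 bases were identical (98.7%). Capitals mark the 4 positions that differ between SERPINB3 (chr18:63661844-63662143, minus strand) and SERPINB4 (chr18:63644207-63644506, minus strand).
SERPINB3: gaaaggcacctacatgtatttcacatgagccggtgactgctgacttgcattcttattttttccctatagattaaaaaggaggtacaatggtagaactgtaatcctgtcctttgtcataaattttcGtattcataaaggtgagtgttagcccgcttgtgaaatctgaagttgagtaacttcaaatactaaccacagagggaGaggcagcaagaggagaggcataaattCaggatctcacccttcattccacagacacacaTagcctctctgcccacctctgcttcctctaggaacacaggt
SERPINB4: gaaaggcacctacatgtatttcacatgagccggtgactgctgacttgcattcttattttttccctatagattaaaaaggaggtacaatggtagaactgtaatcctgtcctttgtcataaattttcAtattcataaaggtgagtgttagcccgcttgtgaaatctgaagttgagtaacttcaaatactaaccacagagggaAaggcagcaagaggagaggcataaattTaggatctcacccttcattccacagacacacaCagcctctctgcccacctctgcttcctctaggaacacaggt
How reads that match both genes were assigned is not given in the sources used here, so the shared course of the 2 genes cannot be taken as 2 independent measurements. Whether reads were shared between them was not tested. For SPRR1A and SPRR1B, 207 of 282 aligned promoter bases were identical (73.4%).

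A2ML1, a broad inhibitor of the alpha-2-macroglobulin family, was at 8.81, 8.35 and 9.37 CPM at 0 h, 2.67, 2.87 and 4.44 at 8 h, 3.64, 3.01 and 3.28 at 24 h and 10.3, 10.2 and 11.05 at 48 h in MYC-ER cells. Across the parental times it stood at 2.49, 2.65 and 2.38 CPM at 0 h, 2.38, 3.495 and 3.79 at 8 h, 5.77, 6.68 and 8.59 at 24 h and 5.14, 7.73 and 6.95 at 48 h. MYC-ER libraries at 8 and 24 h lay below those at 0 and 48 h, while parental libraries at 24 and 48 h lay above those at 0 h. The MYC-ER changes were -1.41 (adjusted p = 1.0e-06), -1.42 (adjusted p = 1.1e-06) and 0.25 at 8, 24 and 48 h, the last not called. At 24 h parental A2ML1 rose by 1.49, and the difference between the lines was -2.90 (adjusted p = 7.2e-09).

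The 3 transcription factors took 3 different courses. GRHL3 (ENSG00000158055.15, chr1:24319357-24364482), a grainyhead factor needed for the skin barrier, was at 1.73, 1.36 and 1.56 CPM at 0 h, 12.7, 12.6 and 15.1 at 8 h, 15.3, 14.2 and 13.3 at 24 h and 5.6, 6.401 and 6.04 at 48 h in MYC-ER cells. In parental cells it was at 32.1, 39.4 and 40.2 CPM at 0 h, 41, 45.5 and 50.1 at 8 h, 47.8, 46.1 and 48.2 at 24 h and 41.2, 45.5 and 47.9 at 48 h. MYC-ER libraries at 8 and 24 h stood well above those at 0 h, those at 48 h lay between, and every parental library was higher still. GRHL3 rose by 3.12 (SE 0.11, adjusted p = 3.5e-16) at 8 h, 3.20 (adjusted p = 2.5e-16) at 24 h and still 1.95 at 48 h. Calls in the parental line were small (0.29, 0.35 and 0.27) and lost without parental 0 h replicate 1 (0.19, 0.25 and 0.17). The difference between the lines at 8 h was 2.83 (adjusted p = 5.2e-13).

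ELF3 (ENSG00000163435.16, chr1:202010587-202017183), an epithelial factor of the ETS family that acts on envelope genes, made the widest swing of the set. It was at 5.87, 6.28 and 5.78 CPM at 0 h, 0.347, 0.248 and 0.307 at 8 h, 0.716, 0.707 and 0.404 at 24 h and 21.3, 21.1 and 24.4 at 48 h in MYC-ER cells. Parental libraries held 0.442, 0.211 and 0.321 CPM at 0 h, 0.156, 0.139 and 0.124 at 8 h, 0.295, 0.221 and 0.299 at 24 h and 0.197, 0.331 and 0.173 at 48 h. The order in MYC-ER cells was 48 h, 0 h, 24 h and 8 h with no overlap between neighbours, and parental libraries were below 1 CPM throughout. ELF3 changed by -4.31 (SE 0.25, adjusted p = 1.2e-12) at 8 h, -3.29 (adjusted p = 4.2e-11) at 24 h, then 1.90 (SE 0.21, adjusted p = 1.8e-07) at 48 h, and rose by 5.19 from 24 to 48 h. In parental cells only 8 h was called (-1.21), a call lost with only the compared groups fitted (a log2 change of -1.21).

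ZNF750, a zinc finger factor that promotes late epidermal differentiation, was at 2.04, 2.07 and 1.43 CPM at 0 h, 0.636, 0.589 and 0.814 at 8 h, 3.26, 3.86 and 3.95 at 24 h and 4.15, 3.71 and 4.05 at 48 h in MYC-ER cells. Parental readings were 6.16, 6.18 and 6.38 CPM at 0 h, 4.85, 5.26 and 5.897 at 8 h, 6.61, 5.91 and 6.31 at 24 h and 5.76, 6.36 and 6.95 at 48 h. MYC-ER libraries were lowest at 8 h and then passed the 0 h level at 24 and 48 h, while the parental libraries stayed between 4.85 and 6.95 CPM. The MYC-ER changes were -1.44 (SE 0.14, adjusted p = 9.1e-09), 1.00 (adjusted p = 1.1e-06) and 1.10 (adjusted p = 6.1e-07) at 8, 24 and 48 h.

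Neighbouring genes did not share a single course. The 16 members of the epidermal differentiation complex listed here span 1.35 Mb of chromosome 1 (152106317 to 153460651). Between SPRR1B and SPRR1A, which did not fall at any time in MYC-ER cells, lies SPRR3, which fell at all 3 times. At the far end S100A9, S100A12, S100A8 and S100A7 lie next to one another and gave 3 different patterns of calls over the 3 times.

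**Figure D3:**
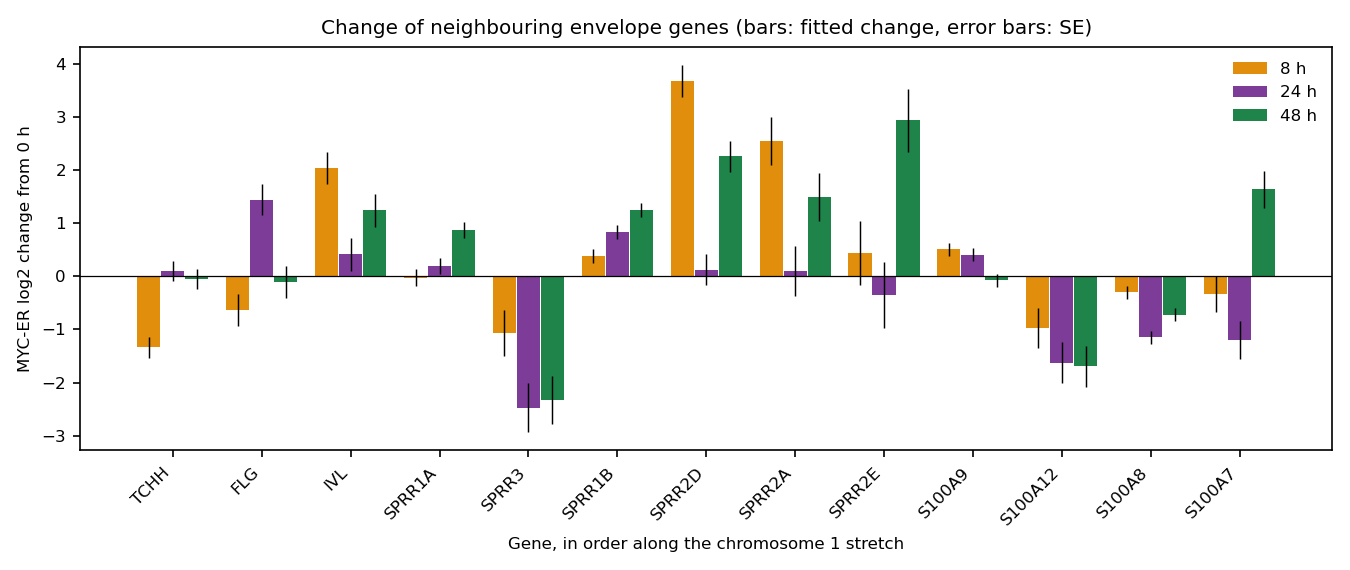
Fitted log2 change in MYC-ER cells at 8, 24 and 48 h against 0 h (bars, with SE) for 13 members in their order along the epidermal differentiation complex; HRNR and CRNN did not pass the filter and RPTN had a group at 0. SPRR2D and SPRR2A rise at 8 and 48 h, SPRR3 and S100A12 fall at each time, and S100A7 rises only at 48 h.

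Fewer members were called in parental cells given 4-OHT, as were fewer of all genes tested. The shares of members called, both directions together, lie near the background, so their number is not itself a result. At 8 h 2 of the 40 tested members were higher and 12 lower (background 31%, 15% and 16%), at 24 h 7 and 12 (background 42.9%, 21.2% and 21.7%), and at 48 h 5 and 12 (background 40.5%, 20.4% and 20.1%). The 14 calls at 8 h became 7 without parental 0 h replicate 1, without parental 0 h replicate 3 or without parental 8 h replicate 1, and the 19 at 24 h became 11 without parental 0 h replicate 3. Of the 14, 19 and 17 calls, 0, 4 and 9 were made in every alternative; the 9 at 48 h were SPRR1B, TGM5, CALML3, S100A8, S100A9, PI3 and SLPI, which were lower, and DSG1 and A2ML1, which were higher. Parental changes over all genes also ran with sequence composition: across 9777 genes, which are not independent replicates, Spearman's rho of change with GC content was -0.632, -0.673 and -0.663 at 8, 24 and 48 h, against -0.06 to 0.0357 for MYC-ER changes from 0 h. The tested members had a median GC content of 53.6%, against 49.1% for all genes tested. With trends in GC content and length removed, 4 members were higher and 4 lower at 8 h and 7 higher and 3 lower at 24 h, so the excess of lower calls at these times was no longer there. At 48 h 6 were then higher and 7 lower, so most of that excess had gone too. Without parental 0 h replicate 3 the excess was likewise gone at 8 h (4 higher and 3 lower) and at 24 h (7 and 4). At 48 h 7 were higher and 10 lower without that library. The part of composition in the parental changes was not tested further.

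The lines differed before any 4-OHT. At 0 h 7 of the 40 tested members were higher and 21 lower in the MYC-ER line, where 64.3% of all genes were called, 31.6% higher and 32.7% lower. The genes over 4-fold lower were GRHL3 (-4.58), SPRR1B (-4.46), IVL (-4.42), PI3 (-4.05), SPRR1A (-3.68), S100A9 (-3.38), SPRR2D (-2.79) and S100A8 (-2.11). Higher in MYC-ER cells were ELF3 (4.20), KLK8 (2.96), KLK5 (2.63), KLK7 (2.54), A2ML1 (1.82) and SPRR3 (1.65), with RPTN, near 0 counts in parental cells. So the kallikreins called and the envelope precursors called, SPRR3 apart, differed in opposite directions.

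After 48 h of 4-OHT in both lines, 10 members were higher and 19 lower in MYC-ER cells (background 56.7%, 27.3% and 29.4%). GRHL3 was still lower (-2.90), as were IVL (-2.96), S100A9 (-2.44), SPRR1B (-2.29), S100A12 (-2.10), SPRR1A (-2.04) and PI3 (-2.04). ELF3 was 6.57 higher and KLK8 4.04 higher, and SPRR2E (2.29), TGM5 (1.90), CALML3 (1.80) and S100A7 (1.34) were higher, none of which was higher at 0 h. DSG1, not called between the lines at 0 h (-0.28), was lower at 48 h (-1.81 (adjusted p = 6.6e-09)).

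Whether the 2 lines changed differently was tested as a difference of 2 changes, MYC-ER less parental. At 8 h 11 members changed more towards higher levels in MYC-ER cells and 10 more towards lower levels (background 55.2%, 27.3% and 27.8%), at 24 h 9 and 12 (background 54.5%, 27.7% and 26.8%), and at 48 h 17 and 8 (background 45%, 23.6% and 21.4%). Over all genes this difference ran with GC content too (Spearman's rho 0.237, 0.259 and 0.476 at 8, 24 and 48 h). With trends in GC content and length removed the counts were 12 and 10, 7 and 15, and 15 and 10. The part of composition in these differences was not tested further. At 48 h the largest were CALML3 (2.95), SERPINB4 (2.82), SPRR2E (2.73), TGM5 (2.67) and ELF3 (2.37) upward and SPRR3 (-2.27) and DSG1 (-1.53) downward, leaving aside RPTN, which had a group at or near 0. Genes called in both lines moved in opposite directions for 2 of 11 at 8 h (SPRR1B and S100A9), 5 of 14 at 24 h (SPRR1B, RPTN, DSG1, S100A9 and A2ML1) and 7 of 12 at 48 h (SPRR1A, SPRR1B, TGM5, DSG1, ECM1, CALML3 and PI3). With trends in GC content and length removed the call in at least 1 line was lost for both genes at 8 h, for 4 of the 5 at 24 h (SPRR1B, RPTN, DSG1 and S100A9) and for 2 of the 7 at 48 h (SPRR1A and ECM1). Opposite calls were made in every alternative for A2ML1 at 24 h and for SPRR1B, TGM5, DSG1, CALML3 and PI3 at 48 h, and for neither gene at 8 h. The lines moved in the same direction for 9 members at 8 h, 9 at 24 h and 5 at 48 h. How often all genes called in both lines moved in opposite directions was not counted, so these numbers have no background to be read against.

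**Figure D4:**
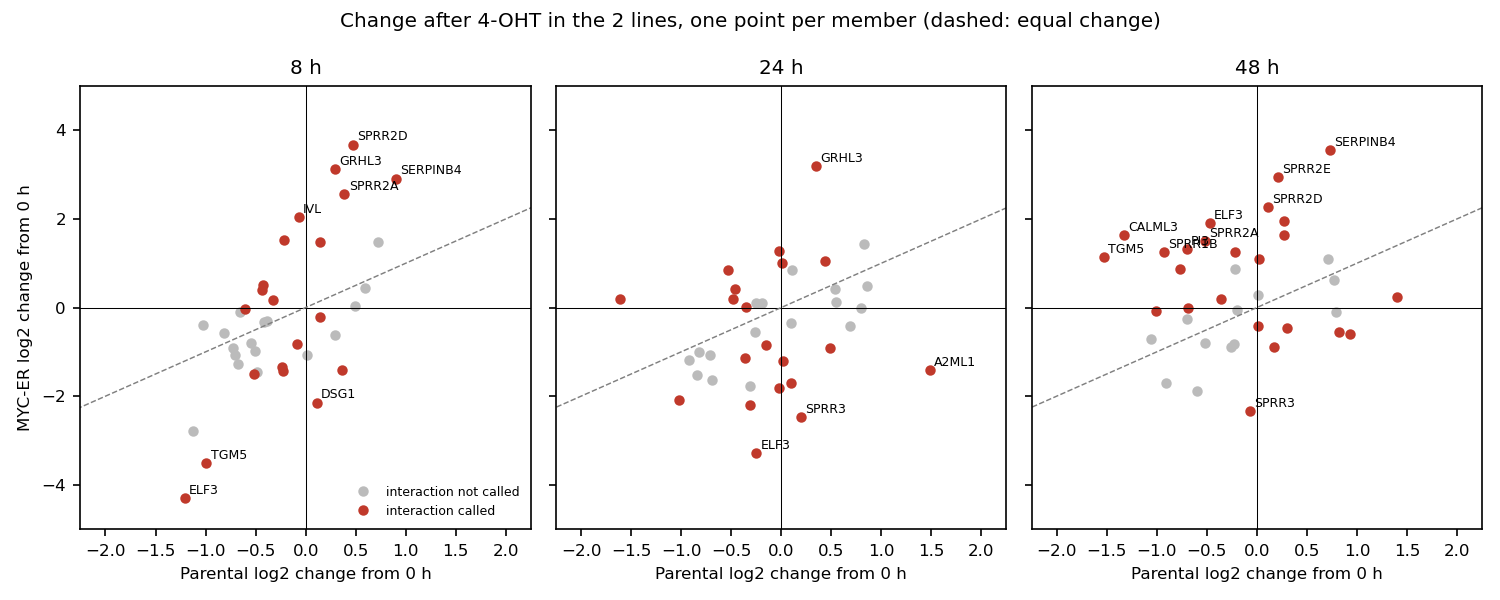
Log2 change from 0 h in MYC-ER cells (vertical) against parental cells (horizontal) at 8, 24 and 48 h, one point per tested member, red where the difference between the lines was called; RPTN, DSC1 and KLK13, each with a group at 0, are left out. Points spread further along the MYC-ER axis, from ELF3 at -4.31 to SPRR2D at 3.68 at 8 h, than along the parental axis.

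Other genes of the programme moved in both directions. Of 22 tested genes of other envelope and barrier structure, 8 rose and 6 fell at 8 h, 10 and 7 at 24 h and 12 and 2 at 48 h in MYC-ER cells, where 67.6%, 61.6% and 44.1% of all genes were called. LCE3D, a late envelope protein encoded in the same complex, averaged 0.916, 17.3, 0.474 and 1.69 CPM over the 4 times, higher at 8 h (4.24 (adjusted p = 8.4e-15)) and at 48 h (0.89) as SPRR2D was, but lower at 24 h (-0.95). Periplakin (PPL), which links the envelope to desmosomes, fell at 8 h (-2.12), and desmoplakin (DSP) and DSG3 of the desmosome fell too (-1.28 and -2.37), while plakophilin 2 (PKP2) rose (2.67).

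Of 23 tested regulators of squamous differentiation, 7 rose and 11 fell at 8 h, 7 and 13 at 24 h and 7 and 8 at 48 h, against the same shares of all genes. EHF, an ETS factor close to ELF3, fell by 4.35 at 8 h, from 24.1 to 1.18 CPM, and was back at 26.6 CPM at 48 h (0.15, not called). MAF, which acts in late epidermal differentiation, fell at 8 h (-5.16), as did KLF4 (-1.97), NOTCH1 (-1.47) and TP63 (-0.81). PRDM1 rose from 2.5 to 34.04 CPM at 8 h (3.77).

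Markers of other epithelial states and cell types also changed in MYC-ER cells. Of all genes tested, 67.6%, 61.6% and 44.1% were called at 8, 24 and 48 h against 0 h. The 12 luminal markers summed to 392.3 to 427 CPM in MYC-ER cells at 0 h and to 882 to 929.8, 717 to 746 and 832 to 859 at 8, 24 and 48 h, with PGR and KIT at 0, against 508 to 750.4 in parental libraries. That sum was led by KRT18, and of the 10 luminal markers tested 4 rose and 2 fell at 8 h, 6 rose and 3 fell at 24 h and 5 rose and 0 fell at 48 h. EPCAM, one of those that rose, went from 1.93 to 23.8, 75.8 and 38.9 CPM. The 12 basal markers summed to 21206 to 21983 CPM at 0 h and to 24602 to 26767, 15810.0 to 16585 and 16385 to 17074 at 8, 24 and 48 h, and of the 12 8 rose and 3 fell at 8 h, 6 rose and 4 fell at 24 h and 6 rose and 3 fell at 48 h. Fibroblast markers summed to 369.6 to 377 CPM at 0 h and 79.95 to 130.2 after 4-OHT, led by COL1A1, and of the 4 tested 0 rose and 2 fell at 8 h, 1 rose and 2 fell at 24 h and 1 rose and 2 fell at 48 h. Endothelial markers summed to at most 2.99 CPM in any library. The part of cell composition in the members' changes was not tested.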

How the data were processed

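Poly(A) RNA of 24 libraries was sequenced, and the authors deposited 1 table of raw counts per gene in whole numbers (per the submitters' processing notes: Trimmomatic 0.39, STAR, StringTie 2.1.3b, GRCh38). StringTie derives counts from coverage, so they may be estimates; how strand and multiply mapping reads were treated is not given in the sources used here. Row identifiers were named from GENCODE 29, which also gave transcript length and GC content (97.95% of the genes tested).

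Library totals ran from 136860029 to 182438505. Counts were scaled by the trimmed mean of M values, filtered with filterByExpr (22158 genes kept) and fitted with 1 mean per group over all 24 libraries in edgeR 4.0.16 (R 4.3.3). Its two-sided quasi-likelihood test was adjusted by Benjamini-Hochberg over all genes of each contrast, threshold 0.05, and SE is the fitted log2 change over the root of F. The fit was tested on simulated data. Heat map values are log2 CPM with a prior count of 2.

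The members and the lists of other genes were chosen with earlier results of these data known. Every member could be named; values of every library are given for members with a mean of at least 1 CPM in their highest group. From each other list at most 4 genes with large MYC-ER changes at 10 CPM or more were named, plus TP63, KLF4 and NOTCH1. Alternatives were DESeq2 1.42.0's size factors and Wald test, scaling by library size alone, no filter, at least 10 counts in every library, only the compared groups, a replicate block, removal of GC and length trends (lowess), and leaving out each library.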

Additional observations from a re-analysis of the deposited data

Results flagged for a closer look

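The change after 4-OHT differed between MYC-ER and parental cells, by the test of the difference itself, for 21 members at 8 h, 21 at 24 h and 25 at 48 h, where 55.2%, 54.5% and 45% of all genes tested differed. For some of these both lines were called, in opposite directions, though with trends in GC content and length removed the parental call was lost for SPRR1B and S100A9 at 8 and 24 h, for DSG1 and RPTN at 24 h and for SPRR1A and ECM1 at 48 h. The MYC-ER call of ECM1 at 48 h was lost there too. The differences are given as the MYC-ER minus the parental log2 change. SPRR1B, an envelope precursor, differed by 0.82 at 8 h, 1.37 at 24 h and 2.17 at 48 h, with a rise from 0 h in MYC-ER and a fall in parental cells each time. S100A9 differed in the same sense by 0.94 at 8 h and 0.87 at 24 h. At 24 h DSG1 (-1.40) and A2ML1 (-2.90) fell from 0 h in MYC-ER and rose in parental cells, and so did RPTN, whose fitted -10.59 is no size because its 3 MYC-ER libraries at 24 h were at 0. At 48 h SPRR1A (1.64), TGM5 (2.67), ECM1 (0.55), CALML3 (2.95) and PI3 (2.01) rose from 0 h in MYC-ER and fell in parental cells, and DSG1 (-1.53) did the reverse.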

How the results depend on the processing

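Of 307 member and contrast pairs called, 231 were called in every alternative. Of 4953 values under alternatives, 4599 kept direction and call, 346 kept the direction but lost the call and 8 turned. The counts of members called were within 1.5 times except in parental cells. There the 14 calls at 8 h became 1 with only the compared groups fitted and 8 with GC and length trends removed, and the 19 at 24 h became 10 under each of these and 10 with a replicate block added to the trend removal. The cause was not tested.

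Leaving out single libraries gave 24 to 29, 23 to 25 and 22 to 26 calls in MYC-ER cells at the 3 times, 21 to 24 for 24 against 8 h and 26 to 28 for 48 against 24 h, and 7 to 19, 11 to 19 and 13 to 18 in parental cells at the 3 times. It gave 27 to 29 and 27 to 28 between the lines at 0 and 48 h, and 20 to 23, 19 to 23 and 21 to 25 for the difference in change at the 3 times.

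The 8 values that turned came with GC and length trends removed, without and with a replicate block: S100A8 in MYC-ER cells at 8 h (0.0097 and 0.015), LYPD3 (0.087 and 0.0867) and SPRR1A (0.0625 and 0.0606) in parental cells at 24 h, and LYPD3 between the lines at 0 h (0.0965 and 0.0972), none of them called there.

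Replicate numbers did not pair the libraries: deviations of same-numbered libraries correlated at -0.399 to 0.587 (median -0.005) over 84 pairs, and 9 of 24 libraries correlated best with their own number. With the replicate block 29, 25 and 25 members were called in MYC-ER cells at 8, 24 and 48 h, 25 for 24 against 8 h, 28 for 48 against 24 h, 14, 17 and 16 in parental cells, 28 and 30 between the lines at 0 and 48 h, and 22, 22 and 24 for the difference in change.

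Scaling by library size alone moved the median of all genes by 0.109 and 0.162 in MYC-ER cells at 24 and 48 h, 0.206 for 24 against 8 h, 0.141 between the lines at 48 h, and -0.118 and 0.102 for the difference in change at 8 and 48 h. The share of calls that were higher went from 51.2% to 67.8% for 24 against 8 h, from 53.0% to 73.8% in MYC-ER cells at 48 h, from 48.2% to 59.8% between the lines at 48 h and from 52.5% to 63.5% for the difference at 48 h. No member called turned under this scaling or under DESeq2's size factors. Genes with a few counts per library, such as SPRR2A, KLK8, KLK11 and SERPINB4, limit how far small changes can be read.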
